A study of Homo sapiens with 30 samples.

Results

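The EGF receptor gene EGFR and 4 genes for its ligands were followed through human small airway epithelial (SAE) cells exposed to nanomaterials: HBEGF, EREG, TGFA and BTC. Every probe set whose gene symbol in the platform annotation was exactly one of these 5 was taken, whatever its values. The 5 genes themselves were chosen with earlier results of these data known. This gave 14 of the 22277 probe sets on the array (6 for EGFR, 3 for HBEGF, 1 for EREG, 3 for TGFA and 1 for BTC), and 5 of the 11963 genes with a symbol of their own. The RNA of 30 cultures was hybridised to 1 expression array each, in 10 groups of 3 biological replicates. Cultures received multi-walled carbon nanotubes (MWCNT) at 10 or 100 ug/ml, titanium dioxide nanobelts (TiO2-NB, below "TiO2") at 10 or 100 ug/ml, or neither (0 ug/ml, control), and were collected after 1 h or after 24 h. The cells were primary SAE cells from a commercial supplier, trypsinised, plated in flasks in the supplier's growth medium and given the particles directly in that medium. The labels do not say whether replicates were separate donors or flasks, nor how long after plating the particles were added, and all groups share this handling. P-values below therefore measure the spread between these cultures only.

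EGFR is a cell-surface tyrosine kinase that is activated when a ligand of the EGF family binds and brings receptor molecules together. The ligands are made as membrane proteins and are released by metalloproteases. HB-EGF (HBEGF), epiregulin (EREG), TGF-alpha (TGFA) and betacellulin (BTC) all bind EGFR, HB-EGF, epiregulin and betacellulin also bind ERBB4, and in airway epithelium this pathway is known for its part in repair after injury. Activated EGFR signals through the RAS-ERK cascade, which also switches on inhibitors of itself, among them the dual-specificity phosphatases (DUSP) and the Sprouty (SPRY) and SPRED proteins.

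All values are log2 expression from the authors' RMA (robust multi-array average) table, in which array medians lay between 7.15 and 7.21 and the table median was 7.18. The scale has no detection call, so a position in the table is given only as a guide, and levels of different probe sets are not amounts to set against each other. Of 10 epithelial markers measured, 6 lay above the table median (CDH1, ITGB4, KRT18, KRT5, KRT8 and S100A2), and EPCAM, KRT14, KRT19 and LAMB3 did not. None of 4 secretory, 4 ciliated or 5 endothelial markers did, against 1 of 4 alveolar markers (SFTPC), 1 of 6 immune markers (CD14) and 2 of 6 fibroblast markers (COL1A1 and PDGFRB). The mean of the epithelial list lay between 7.79 and 8.13 in the 10 groups. Replicate 1 of the 24 h controls stood apart: the SD of its deviations from its group means was 0.155, against 0.0732 to 0.132 in the other 29 arrays. Its 3' minus 5' difference of the ACTB control probe sets, a sign of RNA quality, was 0.86, against 0.23 to 0.61 in the others. The same difference of the GAPDH control probe sets did not set it apart: it was 0.11, as in an MWCNT 10 culture at 1 h. All comparisons share 1 estimate of the spread, so calls that end or appear on leaving this array out are given with and without it, a choice made after seeing the data.

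The promoters of the pair of ligands that differed most between the times, EREG and HBEGF, are shown first, as 250 bases ending at the RefSeq start of transcription (GRCh38.p14), read 5′ to 3′ on the gene's strand. The EREG window is chr4:74364895-74365144 on the plus strand and the HBEGF window is chr5:140346604-140346853 on the minus strand. Capitals mark matches on either strand to TGACG, known as a CRE half-site. They also mark TATAAA, the usual letters of a TATA box. The third motif marked is GGGCGG, known as a binding site of the factor SP1.
EREG: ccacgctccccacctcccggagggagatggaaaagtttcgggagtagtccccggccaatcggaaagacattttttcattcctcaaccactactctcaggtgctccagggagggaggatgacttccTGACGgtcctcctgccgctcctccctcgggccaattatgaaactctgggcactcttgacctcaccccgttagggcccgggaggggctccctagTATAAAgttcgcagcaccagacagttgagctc
HBEGF: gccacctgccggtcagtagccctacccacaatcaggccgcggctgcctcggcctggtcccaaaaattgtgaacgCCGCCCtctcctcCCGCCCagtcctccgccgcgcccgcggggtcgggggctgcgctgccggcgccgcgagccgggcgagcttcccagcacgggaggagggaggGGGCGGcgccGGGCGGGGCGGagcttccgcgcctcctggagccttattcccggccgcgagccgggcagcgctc
The EREG window held TATAAA 32 bases and TGACG 125 bases before the start, with a GC content of 58.0%. The HBEGF window held 5 matches to GGGCGG, the pair nearest the start sharing a base, with a GC content of 76.4% and no match to either of the EREG motifs. Neither window matched TGANTCA (AP-1) or the serum response element's CArG box. Among 35116 RefSeq promoter windows of the same length, 10.7% held TATAAA, 21.2% TGACG, 42.6% GGGCGG, 6.57% TGANTCA and 1.16% a CArG box. These are matches of letters, not tested sites.

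EREG and HBEGF were much higher in all groups collected at 1 h than in all groups collected at 24 h, with or without particles. In the controls EREG fell by 2.83 ± 0.15 (SE) from 1 h to 24 h, which is 7.11-fold on the linear scale, and HBEGF fell 2.3-fold and 1.8-fold by its 2 responsive probe sets. Between the 24 h and 1 h controls 5 of the 14 probe sets (35.7%) passed limma's test at an adjusted p of 0.05, all lower at 24 h, beside 27.9% of all 22215 probe sets tested. Without the 24 h control array that stood apart, these 5 probe sets were again called, and EGFR 201983_s_at was called higher, beside 23.7% of all probe sets. The median difference of the 14 was -0.05, beside -0.02 over all probe sets. The ACTB 3' minus 5' difference was also larger at 24 h (group means 0.47 to 0.59) than at 1 h (0.33 to 0.39), with overlap between single arrays of the 2 times, and its part in the result was not tested. The GAPDH difference lay between 0.03 and 0.11 in single arrays at both times. Time since plating and time of sampling are the same in this comparison and cannot be told apart. In whole cultures, neither can fewer cells of a type and less RNA per cell.

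EREG encodes epiregulin, a ligand with low affinity for EGFR and long-lasting signalling. In the 3 control cultures at 1 h EREG (205767_at) measured 10.25, 9.56 and 10.05, and in those at 24 h 7.34, 6.99 and 7.05. The ranges lay more than 2 units apart, and limma's adjusted p was 2.17e-13. All 14 alternative settings that could give a value also called it, with differences from -3.03 to -2.68. Across the exposed groups, no culture at 1 h was below 9.84 and none at 24 h was above 7.63.

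EREG was also the ligand called higher than the controls at 1 h, with MWCNT at 100 ug/ml only. With MWCNT at 100 ug/ml it measured 10.69, 10.63 and 10.84 (mean 10.72 ± 0.11 SD, n = 3), and all 3 cultures lay above the highest control. Of all probe sets, 7.03% were higher without overlap in this comparison. The difference from the controls was 0.77 ± 0.15 (95% interval from 0.46), a 1.7-fold rise with an adjusted p of 0.00591 by limma. It was the single member of 14 (7.14%) called for MWCNT 100 at 1 h, where 1.45% of all probe sets were. The call was lost when only the compared groups were fitted (adjusted p = 0.114, limma). It was also lost without control replicate 2, the lowest control (0.57, adjusted p = 0.0786), or without MWCNT 100 replicate 3 (0.70, adjusted p = 0.0537).

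With TiO2 at 100 ug/ml for 1 h EREG measured 10.42, 10.33 and 10.59, again above every control, with a difference of 0.49 ± 0.15 that did not pass (adjusted p = 0.0933, limma). Here 5.87% of all probe sets were higher without overlap. The 10 ug/ml groups overlapped the controls: 10.00, 10.30 and 10.08 with MWCNT, and 9.94, 9.84 and 10.16 with TiO2. At both particles the 100 ug/ml cultures lay above the 10 ug/ml cultures without overlap, as in 6.06% (MWCNT) and 3.88% (TiO2) of all probe sets. Those dose differences, 0.59 ± 0.15 for MWCNT (adjusted p = 0.1, limma) and 0.47 ± 0.15 for TiO2 (adjusted p = 0.487, limma), did not pass. The MWCNT and TiO2 comparisons share the same 3 controls. MWCNT 100 and TiO2 100 at 1 h differed by 0.27 ± 0.15 in EREG (adjusted p = 0.836, limma), and no member passed between the particles at 1 h, where 0.018% of all probe sets did at 100 ug/ml and 0.009% at 10 ug/ml.

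At 24 h EREG was close to its control level in 3 of the 4 exposed groups, with differences of -0.14, -0.14 and -0.09 for MWCNT 10, MWCNT 100 and TiO2 10. TiO2 100 measured 7.63, 7.31 and 7.38 against 7.34, 6.99 and 7.05 in the controls, overlapping by a single culture. Its difference of 0.32 ± 0.15 did not pass (adjusted p = 0.17, limma). MWCNT 100 (7.06, 6.95 and 6.95) lay below TiO2 100 without overlap, as in 14.4% of all probe sets, by -0.45 ± 0.15 (adjusted p = 0.0583, limma). Without the control array that stood apart this last difference passed (adjusted p = 0.0488, limma). The effect of MWCNT 100 on EREG at 24 h minus that at 1 h was -0.90 ± 0.21 (adjusted p = 0.0568, limma), short of the threshold, and 5 of 20 alternatives called it.

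**Figure D1:**
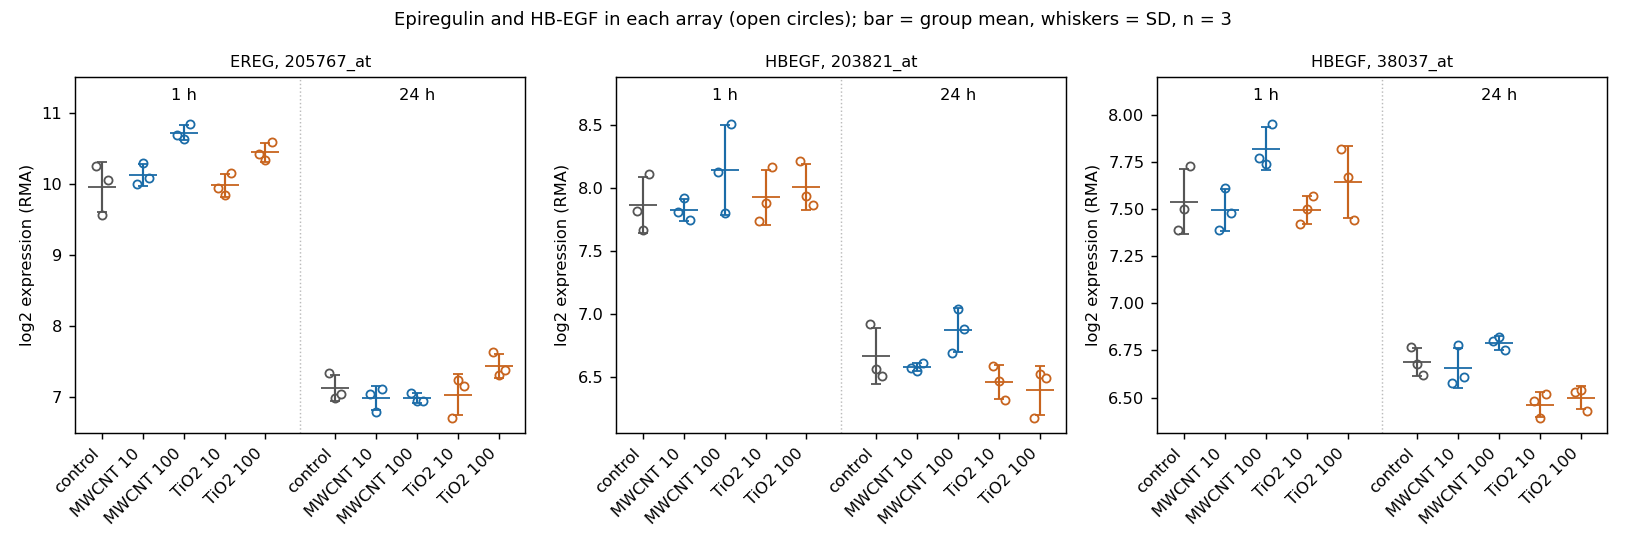
Log2 expression (RMA) of EREG and of the 2 responsive HBEGF probe sets in each of the 30 arrays (open circles), by group, doses in ug/ml, with the group mean (bar) and SD (whiskers, n = 3); the 1 h groups are left of the dotted line and the 24 h groups right of it. EREG lies between 9.56 and 10.84 at 1 h and between 6.70 and 7.63 at 24 h, and both HBEGF probe sets are likewise separated by time in every group.

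HBEGF encodes heparin-binding EGF-like growth factor, which binds EGFR and ERBB4. In probe set 203821_at the 1 h controls measured 7.82, 7.67 and 8.11 and the 24 h controls 6.92, 6.56 and 6.51, a difference of -1.20 ± 0.15 (adjusted p = 1.54e-06, limma). In 38037_at they measured 7.39, 7.50 and 7.73 at 1 h and 6.77, 6.68 and 6.62 at 24 h, a difference of -0.85 ± 0.09 (adjusted p = 7.67e-08, limma). The times did not overlap in either, where 16.5% of all probe sets were lower at 24 h without overlap. Both calls held in all alternatives run, 14 for 203821_at and 12 for 38037_at. The pair moved together over the 30 arrays (Pearson r = 0.977, a description over arrays that share groups). The third probe set, 222076_at, stayed between 5.61 and 6.04 in all arrays, and none of its comparisons passed.

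At 1 h HBEGF was highest with MWCNT at 100 ug/ml in both responsive probe sets. In 38037_at these cultures measured 7.77, 7.74 and 7.95, just above the controls' highest, with a difference of 0.28 ± 0.09 that did not pass (adjusted p = 0.136, limma). In 203821_at they measured 8.13, 7.80 and 8.51 and overlapped the controls. No HBEGF probe set passed against the controls with either particle at either time.

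At 24 h the group means of the 2 particles at 100 ug/ml lay on opposite sides of the controls in HBEGF. In 38037_at MWCNT 100 measured 6.80, 6.82 and 6.75 and TiO2 100 measured 6.53, 6.54 and 6.43, with no overlap. Of all probe sets, 22.4% were higher with MWCNT 100 than with TiO2 100 without overlap, and 14.4% were lower. HBEGF was higher with MWCNT 100 than with TiO2 100 by 0.29 ± 0.09 (adjusted p = 0.0407, limma). In 203821_at the values were 6.69, 7.04 and 6.88 against 6.17, 6.52 and 6.49, also without overlap, and the difference of 0.47 ± 0.15 just missed the threshold (adjusted p = 0.0528, limma). Without the control array that stood apart it passed (0.47 ± 0.15, adjusted p = 0.0408, limma). Only 4 of 13 alternatives called 38037_at, and leaving out any 1 of the 6 compared cultures ended the call. Against the shared controls the separate differences in 38037_at were 0.10 ± 0.09 for MWCNT 100 and -0.19 ± 0.09 for TiO2 100, and neither passed.

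TGFA encodes TGF-alpha and BTC betacellulin. Neither changed in any comparison. The 3 TGFA probe sets ranged over 5.93 to 6.39, 5.55 to 6.04 and 4.87 to 5.56 in the 30 arrays, and BTC over 3.02 to 3.50. All 30 values of each lay below the table median, and BTC sat at the 4.21st percentile of probe sets. Group means spanned 0.22, 0.15 and 0.25 for TGFA and 0.13 for BTC, where the pooled SD within groups was 0.11, 0.11, 0.18 and 0.13. The smallest unadjusted p among their tests was 0.029, for TGFA 205015_s_at in TiO2 100 against TiO2 10 at 1 h (-0.20 ± 0.09, adjusted p = 0.93, limma). Values this low on the array could hide a change, so no change was detectable rather than shown to be absent. Amphiregulin and epigen, other ligands of the receptor, were not analysed here.

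The receptor itself was read by 6 probe sets that did not move together. EGFR 201983_s_at (mean 10.06) and 201984_s_at (mean 9.76) were the brightest, above the table median in all 30 arrays, yet their correlation over the 30 arrays was -0.122. The other 4 had means from 5.68 to 6.96. Results for EGFR are therefore given by probe set, and no direction is given for the gene as a whole. Alternative transcripts of EGFR are known, but which transcript each probe set reads was not tested.

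In 201983_s_at EGFR was higher in all 4 exposed groups at 1 h than in the 1 h controls. The controls measured 8.89, 9.16 and 9.54. MWCNT 10 measured 9.72, 9.62 and 9.93, and MWCNT 100 measured 10.10, 9.99 and 10.22. TiO2 10 measured 10.39, 10.34 and 10.39, and TiO2 100 measured 10.35, 10.46 and 10.65. No exposed culture overlapped the controls. Of all probe sets, 9.13%, 7.03%, 7.78% and 5.87% were higher without overlap for MWCNT 10, MWCNT 100, TiO2 10 and TiO2 100. The differences were 0.56, 0.91, 1.18 and 1.29, each ± 0.32, and only that of TiO2 100 passed (2.45-fold, 95% interval 0.63 to 1.96, adjusted p = 0.0235, limma). It was 1 of 14 members (7.14%) called for TiO2 100 at 1 h, beside 2.63% of all probe sets. Of those whose name ends in _s_at, as here, 3.67% were called higher and 0.389% lower. The part of this in the result was not tested. For MWCNT 10, MWCNT 100 and TiO2 10 the adjusted p by limma was 0.533, 0.207 and 0.0776. No member was called for MWCNT 10 or TiO2 10 at 1 h, where 0.0315% and 1.27% of all probe sets were. The TiO2 100 call was lost without control replicate 1 (1.14, adjusted p = 0.146, limma) or 2 (1.27, 0.0895), or without TiO2 100 replicate 2 (1.31, 0.0512) or 3 (1.21, 0.12).

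A single array at the other time set the error of these differences. Replicate 1 of the 24 h controls measured 8.09 in 201983_s_at, the lowest of the 30 arrays, beside 10.36 and 10.23 in the other 24 h controls, and the pooled SD of this probe set was 0.43 against a median group SD of 0.12. Without that array the 1 h differences were the same and their SE fell to 0.11. All 4 then passed, with adjusted p by limma of 0.0177, 1.79e-05, 5.84e-07 and 4.92e-08. With 201983_s_at and EREG, 2 members were then called for MWCNT 100, beside 2.79% of all probe sets, and 1 member in each of the other 3 comparisons, beside 0.77% (MWCNT 10), 2.23% (TiO2 10) and 3.34% (TiO2 100). MWCNT 10 was then lower than TiO2 10 at 1 h by -0.62 ± 0.11 (adjusted p = 0.0158, limma), beside 0.266% of all probe sets. The MWCNT 100 and TiO2 100 cultures did not overlap either, but their difference of -0.39 ± 0.11 did not pass (adjusted p = 0.289, limma). In 4.94% of all probe sets MWCNT 100 was lower than TiO2 100 without overlap. All comparisons with 1 h controls share the same 3 control arrays, so their 4 differences are not separate evidence.

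The other bright probe set did not follow. In 201984_s_at the 1 h controls measured 9.89, 9.82 and 10.03, MWCNT 100 measured 9.96, 9.96 and 9.92, and TiO2 100 measured 9.86, 9.90 and 9.93. These overlap, and the TiO2 100 difference was -0.02 ± 0.05.

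At 24 h the exposed groups measured from 10.08 to 10.42 in 201983_s_at. The differences from the controls were 0.78, 0.76, 0.76 and 0.62 for MWCNT 10, MWCNT 100, TiO2 10 and TiO2 100, none called. Without control replicate 1 they were 0.04, 0.02, 0.03 and -0.12, so the first set of values rested on that array. The 24 h controls stood above the 1 h controls by 0.36 ± 0.32 with it (adjusted p = 0.437, limma) and by 1.10 ± 0.13 without it (adjusted p = 5.59e-07, limma). The effect at 24 h minus that at 1 h did not pass in any member with all arrays, beside 0%, 0.446%, 0.0225% and 1.44% of all probe sets for MWCNT 10, MWCNT 100, TiO2 10 and TiO2 100. Without that array it passed in 201983_s_at for MWCNT 100 (-0.88, adjusted p = 0.00925), TiO2 10 (-1.15, adjusted p = 0.000838) and TiO2 100 (-1.41, adjusted p = 3.58e-05), all by limma. For MWCNT 10 it was -0.52 (adjusted p = 0.673, limma).

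EGFR 201984_s_at fell with time and was lowest with TiO2 at 100 ug/ml. The 24 h controls measured 9.65, 9.61 and 9.72, lower than at 1 h by -0.25 ± 0.05 (adjusted p = 0.000233, limma). TiO2 100 at 24 h measured 9.50, 9.47 and 9.43, below every other culture. Its difference from the controls was -0.19 ± 0.05 (adjusted p = 0.0159, limma), 1 of 14 members (7.14%) where 10.4% of all probe sets passed. It was still called without control replicate 1 (adjusted p = 0.0389, limma), when 5.4% of all probe sets passed, and lost without control replicate 3 (-0.16, adjusted p = 0.0559, limma) or without TiO2 100 replicate 3 (-0.17, adjusted p = 0.0685, limma). MWCNT 100 at 24 h measured 9.67, 9.62 and 9.69 and was higher than TiO2 100 by 0.19 ± 0.05 (adjusted p = 0.0152, limma), a call lost without replicate 3 of either group. With the HBEGF probe set above, that made 2 of 14 members (14.3%) between the particles at 100 ug/ml, beside 8.91% of all probe sets. Without the control array that stood apart 4 of 14 passed, with HBEGF 203821_at and EREG added, beside 10.4% of all probe sets.

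**Figure D2:**
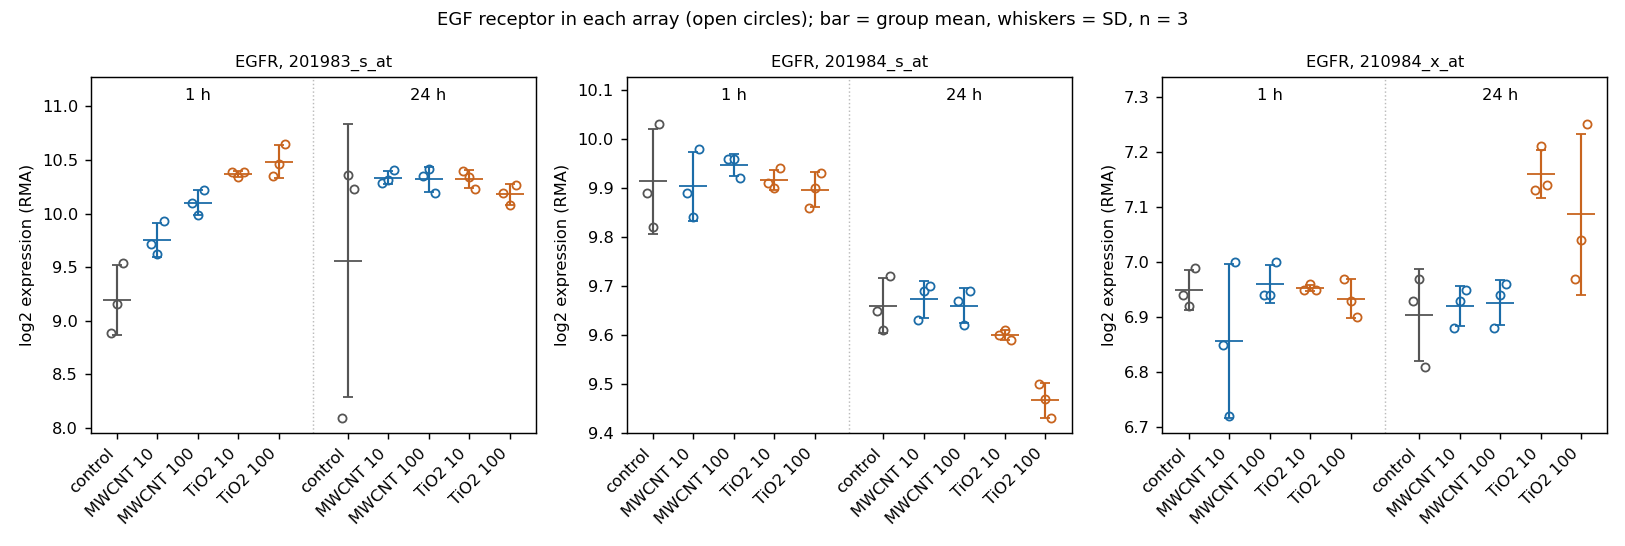
Log2 expression (RMA) of 3 EGFR probe sets in each of the 30 arrays (open circles), by group, doses in ug/ml, with the group mean (bar) and SD (whiskers, n = 3), on axes of different range. In 201983_s_at the 1 h controls lie below every exposed 1 h culture and 1 of the 24 h controls lies at 8.09; in 201984_s_at TiO2 100 at 24 h lies below all other groups, and in 210984_x_at TiO2 10 at 24 h lies above the controls.

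The dimmer EGFR probe sets gave small differences at 24 h with TiO2, which were called with all arrays at the lower dose only. The means at 100 ug/ml were 7.09 in 210984_x_at (7.16 at 10 ug/ml), 6.94 in 211607_x_at (6.93), 5.73 in 211551_at (5.75) and 6.84 in 211550_at (6.98). Against the controls TiO2 100 differed by 0.18 in 210984_x_at, called in 3 of 12 alternatives. In 210984_x_at the 24 h controls measured 6.93, 6.97 and 6.81 and TiO2 10 measured 7.13, 7.21 and 7.14, without overlap. Of all probe sets, 10.4% were higher without overlap in that comparison. The difference was 0.26 ± 0.06 (adjusted p = 0.0291, limma), 1 of 14 members (7.14%) where 4.71% of all probe sets passed. The call held in 5 of 12 alternatives and was lost on leaving out any TiO2 10 culture or control replicate 3. It was also lost without control replicate 1 (0.27, adjusted p = 0.0783, limma), when 0.333% of all probe sets passed in place of 4.71%. Probe sets of this kind, whose name ends in _x_at, can match other transcripts. As a class 5.72% of them were called higher and 0.7% lower in this comparison, against 1.13% and 2.81% of those ending in _s_at, and the part of this in the result was not tested. Against TiO2 10, MWCNT 10 at 24 h was lower in 210984_x_at (6.88, 6.93 and 6.95) by -0.24 ± 0.06 (adjusted p = 0.0365, limma). It was also lower in 211551_at (5.48, 5.54 and 5.44 against 5.72, 5.74 and 5.78) by -0.26 ± 0.07 (adjusted p = 0.0391, limma). These were 2 of 14 members (14.3%), beside 3.75% of all probe sets, and both were lost on leaving out any of the 3 TiO2 10 cultures or MWCNT 10 replicate 1 or 3. Without the control array that stood apart EGFR 211607_x_at passed as well (-0.24 ± 0.07, adjusted p = 0.0465, limma), beside 5.02% of all probe sets. EGFR 211551_at was also lower in the 24 h than in the 1 h controls (-0.19 ± 0.07, adjusted p = 0.0464, limma), a call held in 4 of 12 alternatives.

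MWCNT at 24 h changed no member at either dose. No probe set of the whole table passed in these comparisons (0% called), although 807 and 1341 of 22215 had an unadjusted p under 0.05 for MWCNT 10 and MWCNT 100, and weighting the arrays by quality called 27 and 1246. Nor did any member pass between the doses of a particle, beside 0.491% (MWCNT, 1 h), 0.23% (TiO2, 1 h), 0% (MWCNT, 24 h) and 0.729% (TiO2, 24 h) of all probe sets by limma.

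**Figure D3:**
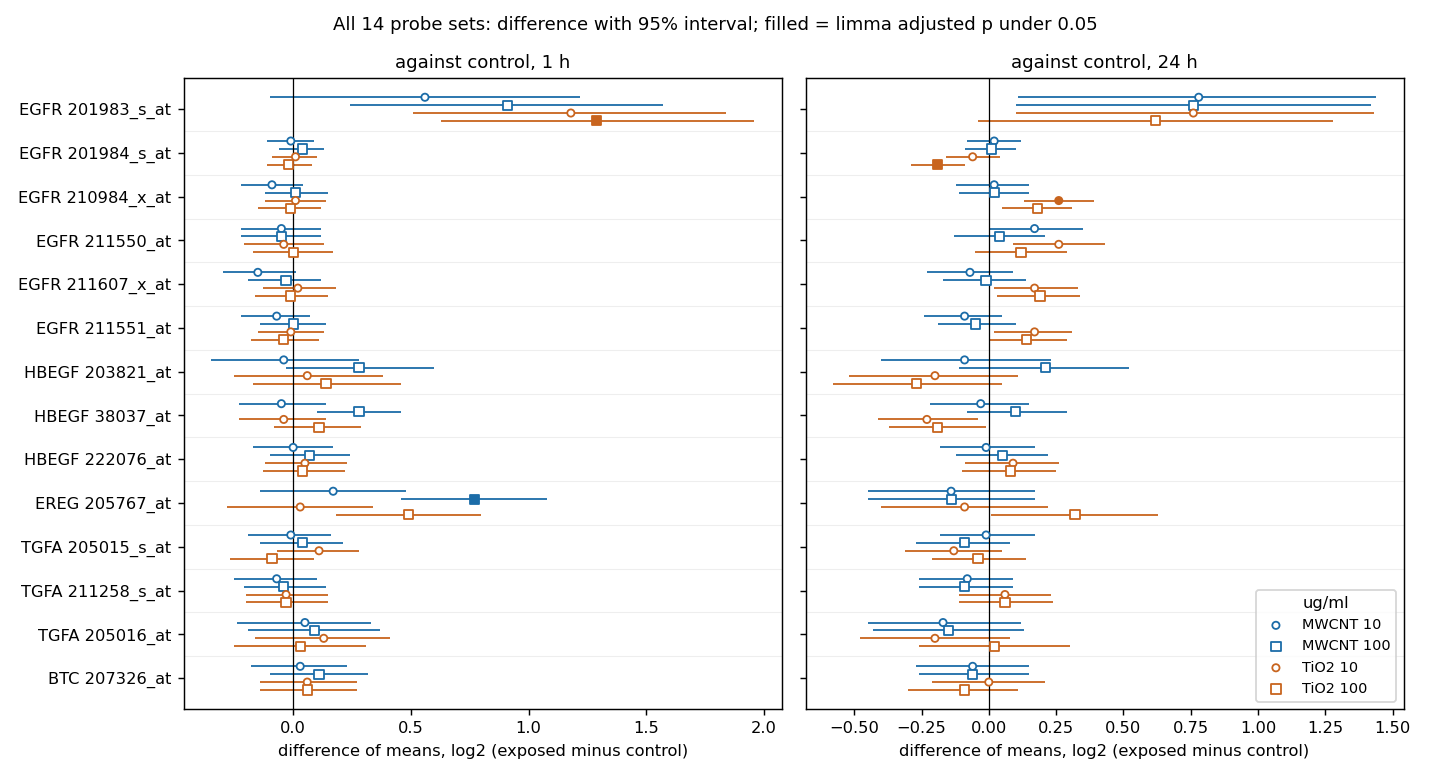
Difference of group means from the control of the same time (log2, exposed minus control) for each of the 14 probe sets, with its 95% interval; circles are 10 ug/ml and squares 100 ug/ml, blue is MWCNT and orange TiO2, and filled symbols passed limma's adjusted p of 0.05. EREG with MWCNT 100 and EGFR 201983_s_at with TiO2 100 are filled at 1 h, EGFR 201984_s_at with TiO2 100 and 210984_x_at with TiO2 10 at 24 h, and the wide intervals of 201983_s_at include the 24 h control at 8.09.

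Other ligands and receptors of the family changed little. Of 7 further ligand genes listed, EGF, NRG1 and NRG2 were measured. NRG2, a neuregulin that binds ERBB3 and ERBB4, was higher with TiO2 100 at 24 h (0.32 ± 0.09, adjusted p = 0.031, limma; 0.0639 without control replicate 1) and lower in MWCNT 100 than in TiO2 100 (-0.31 ± 0.09, adjusted p = 0.0366, limma). In these comparisons 10.4% and 8.91% of all probe sets were called. The other NRG2 probe set gave 0.32 and -0.22 and was not called. The NRG2 calls were lost in 7 of 13 and 7 of 14 alternatives. NRG1 fell by 0.37 ± 0.12 from 1 h to 24 h in the controls in 1 probe set (adjusted p = 0.017, limma), beside 27.9% of all probe sets called. The other 5 NRG1 probe sets gave -0.21 to -0.01 and were not called. Of the 3 other receptors, ERBB3, which has little kinase activity of its own, rose over the same time by 0.61 ± 0.08 (adjusted p = 1.96e-06, limma) in 1 of its 2 probe sets. ERBB3 was also higher with MWCNT 100 than with TiO2 100 at 24 h by 0.29 ± 0.08 (adjusted p = 0.0236, limma) in the same probe set. Its other probe set gave -0.14 and was not called, and the call was lost in 5 of 14 alternatives. ERBB2 and ERBB4 did not pass in any comparison.

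Genes for release of ligands changed in few comparisons. Of 11 genes of ligand shedding and trafficking (23 probe sets), 1 was lower with TiO2 at 24 h, where 4.71% (10 ug/ml) and 10.4% (100 ug/ml) of all probe sets passed. It was ADAM10, a metalloprotease that sheds betacellulin and EGF, lower in 1 of 3 probe sets by -0.43 ± 0.10 at 10 ug/ml and -0.33 ± 0.10 at 100 ug/ml, with adjusted p of 0.023 and 0.0316 by limma. Neither passed without control replicate 1 (adjusted p = 0.0699 and 0.0758, limma). TIMP3, an inhibitor of metalloproteases, was lower with MWCNT 100 than with TiO2 100 at 24 h in 1 of 4 probe sets (-0.34 ± 0.10, adjusted p = 0.0353, limma), a call lost on leaving out any 1 of the 6 cultures compared. No ADAM17 probe set passed with all arrays. ADAM17 was higher with MWCNT 10 than with TiO2 10 at 24 h when control replicate 1 was left out (0.20 ± 0.05, adjusted p = 0.0339, limma). From 1 h to 24 h in the controls FURIN, a protease that cleaves precursor proteins, fell by 0.27 ± 0.08 (adjusted p = 0.0133, limma) and RHBDF1 fell by 0.19 ± 0.06 (adjusted p = 0.019, limma). By probe set 2 of 23 were called lower and 0 higher, beside 11.6% and 16.2% of all probe sets. FURIN did not pass without control replicate 1 (adjusted p = 0.12, limma), and RHBDF1, ADAM10 and ADAM19 were lower.

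Among 12 adaptors and first relays (30 probe sets), 1 gene rose at 1 h and another was lower at 24 h. STAT3, a transcription factor activated downstream of the receptor, rose with TiO2 100 at 1 h in 1 of 2 probe sets (0.34 ± 0.09, adjusted p = 0.0434, limma), beside 2.63% of all probe sets. That call was lost in 7 of 15 alternatives. Without the 24 h control array that stood apart, the same STAT3 probe set also passed with MWCNT 100 (0.31 ± 0.06, adjusted p = 0.00254, limma) and with TiO2 10 (0.30 ± 0.06, adjusted p = 0.0045, limma). PIK3R1, the regulatory subunit of PI3-kinase, then passed with TiO2 10 as well (0.52 ± 0.13, adjusted p = 0.0328, limma). The count of genes thus went from 0 to 1 for MWCNT 100 at 1 h, beside 2.79% of all probe sets. For TiO2 10 at 1 h it went from 0 to 2, beside 2.23%. PTPN11, the phosphatase SHP2 that relays the signal to RAS, was lower with TiO2 10 at 24 h in 2 of 5 probe sets, by -0.31 ± 0.08 and -0.28 ± 0.08 (adjusted p = 0.0385 and 0.0382, limma), where 4.71% of all probe sets passed. Neither passed without control replicate 1 (adjusted p = 0.0986 and 0.155, limma). In the same probe sets PTPN11 was higher with MWCNT 10 than with TiO2 10, by 0.39 ± 0.08 and 0.29 ± 0.08 (adjusted p = 0.0174 and 0.0349, limma), beside 3.75% of all probe sets. From 1 h to 24 h in the controls SHC1 fell by 0.46 ± 0.10 and 0.32 ± 0.04 in 2 probe sets, while NCK1 rose by 0.27 ± 0.06 and 0.46 ± 0.05, and GAB1 (0.33 ± 0.11) and SOS1 (0.23 ± 0.08) rose in 1 of 2 probe sets each. By probe set 4 of 30 were called higher and 2 lower, beside 16.2% and 11.6% of all probe sets. SOS1 did not pass without control replicate 1 (adjusted p = 0.0778, limma) and STAT3 did (0.26 ± 0.07, adjusted p = 0.00666, limma).

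Of 11 genes of receptor turnover (19 probe sets), CBLB, a ubiquitin ligase that marks activated EGFR for degradation, was lower with TiO2 at 24 h. The difference was -0.25 ± 0.07 at 10 ug/ml and -0.32 ± 0.07 at 100 ug/ml (adjusted p = 0.0493 and 0.00937, limma), in 1 of 2 probe sets, with 4.71% and 10.4% of all probe sets called. The former was lost without control replicate 1 (adjusted p = 0.159, limma). From 1 h to 24 h in the controls 4 of the 19 probe sets were called higher and 1 lower, beside 16.2% and 11.6% of all probe sets. CBLB rose by 0.52 ± 0.07 (adjusted p = 6.91e-06, limma) in 1 probe set, and its other probe set gave 0.08. STAM2 and EPS15, which take part in uptake and sorting of receptors, rose by 0.34 ± 0.10 and 0.26 ± 0.07 and SH3GL1 fell by 0.22 ± 0.08. These 3 did not pass without control replicate 1, and CBLC and RAB5A were lower, in a fit that called 23.7% of all probe sets.

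The feedback inhibitors of the pathway were the list with most called genes. From 1 h to 24 h in the controls 9 of its 11 measured genes fell and SOCS5 rose, with a median over its 21 probe sets of -1.06 beside -0.02 over all. By probe set 14 of 21 were called lower and 1 higher, beside 11.6% and 16.2% of all probe sets. DUSP5, a nuclear phosphatase of ERK, fell by 5.29 ± 0.08, and DUSP6, its cytoplasmic counterpart, fell by 4.82 ± 0.13 in the probe set with the widest difference. DUSP1 fell by 2.89 ± 0.14 and DUSP4 fell by 2.17 ± 0.10, each in the probe set with the wider difference. SPRY2 fell by 1.92 ± 0.09 and SPRY4 fell by 1.27 ± 0.12. The other 3 were SPRED2, SOCS3 and LRIG1. Without control replicate 1, 8 genes fell and none rose, with LRIG1 (adjusted p = 0.0565, limma) and SOCS5 (adjusted p = 0.148, limma) no longer called. In that fit 23.7% of all probe sets passed. At 1 h DUSP5 was the 1 gene of the list that rose with MWCNT 100, from 12.35 to 12.91 (0.56 ± 0.08, adjusted p = 0.000105, limma), beside 1.45% of all probe sets. Without the 24 h control array that stood apart, 2 genes passed, with DUSP1 added (0.24 ± 0.06, adjusted p = 0.0258, limma), beside 2.79%. With TiO2 100 at 1 h DUSP5 rose by 0.35 ± 0.08 (adjusted p = 0.0122, limma). DUSP4 (0.88 ± 0.22, adjusted p = 0.029, limma) and DUSP6 (0.35 ± 0.09, adjusted p = 0.0378, limma) rose with it in 1 probe set each, making 3 of 11 genes (3 of 21 probe sets) beside 2.63% of all probe sets. The other DUSP4 probe set gave 0.16 and the other 2 of DUSP6 gave 0.12 and 0.34, none called, and the calls of DUSP4 and DUSP6 were lost in 6 and 7 of 14 alternatives. With TiO2 10 at 1 h no gene of the list passed with all arrays, and without that array DUSP4 did (0.78 ± 0.15, adjusted p = 0.00238, limma). DUSP5 was also higher at 100 than at 10 ug/ml at 1 h, by 0.48 ± 0.08 with MWCNT (adjusted p = 0.00145, limma) and 0.37 ± 0.08 with TiO2 (adjusted p = 0.0482, limma), the latter lost in 9 of 15 alternatives.

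At 24 h 7 of the 11 genes (9 of 21 probe sets) were higher with TiO2 at 100 ug/ml and none was lower. They were DUSP6 (0.89 ± 0.13, 0.71 ± 0.13 and 0.37 ± 0.09 in its 3 probe sets), SPRED2 (0.63 ± 0.09), SPRY4 (0.49 ± 0.12), DUSP1 (0.39 ± 0.06), DUSP4 (0.37 ± 0.10), SPRY1 (0.34 ± 0.08) and SPRY2 (0.28 ± 0.09). With TiO2 100 the means of DUSP6 (6.35, 6.72 and 6.89), SPRY4 (6.47) and SPRY1 (6.16) lay below the table median of 7.18. The list's median difference was 0.22, beside -0.02 over all probe sets, of which 10.4% passed. Without control replicate 1, DUSP4 no longer passed (0.24, adjusted p = 0.115, limma) and 6 genes did. The calls of all 9 probe sets ended when only the compared groups were fitted, a fit that called 12 probe sets in the whole table, and that of SPRY2 was lost in 5 of 14 alternatives. In SPRED2 1 of 3 probe sets passed and in DUSP1 and DUSP4 1 of 2. None of them passed with MWCNT 100 at 24 h, a comparison in which no probe set of the whole table did. Between the particles 8 of 11 genes (10 of 21 probe sets) were lower with MWCNT 100 than with TiO2 100, where 8.91% of all probe sets passed and 3.58% were lower. The widest were DUSP6 (-0.93 ± 0.13), SPRED2 (-0.69 ± 0.09), SPRY2 (-0.63 ± 0.09), DUSP4 (-0.47 ± 0.10), DUSP1 (-0.44 ± 0.06) and SPRY4 (-0.43 ± 0.12), and the other 2 were SPRY1 and LRIG1. The SPRY4 call between the particles was lost in 7 of 14 alternatives, and the other SPRED2 probe sets gave -0.07 and 0.11, not called. Against TiO2 10 at 24 h 6 genes (8 of 21 probe sets) were higher with TiO2 100, where 0.729% of all probe sets passed. They were DUSP6 (1.01 ± 0.13), SPRED2 (0.74 ± 0.09), SPRY2 (0.53 ± 0.09), DUSP4 (0.46 ± 0.10), DUSP1 (0.39 ± 0.06) and DUSP5 (0.37 ± 0.08). Between the TiO2 doses the other SPRED2 probe sets gave 0.01 and 0.05, not called. DUSP5 was higher with MWCNT 10 than with TiO2 10 (0.29 ± 0.08, adjusted p = 0.044, limma), a call lost in 9 of 15 alternatives. These 24 h comparisons share the TiO2 100 cultures. In the same cultures EREG had the highest mean of the 24 h groups, and HBEGF 203821_at and EGFR 201984_s_at had the lowest. In HBEGF 38037_at the lowest mean was that of TiO2 10 (6.46, beside 6.50 with TiO2 100). The ranges of the TiO2 doses overlapped in both of these HBEGF probe sets.

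**Figure D4:**
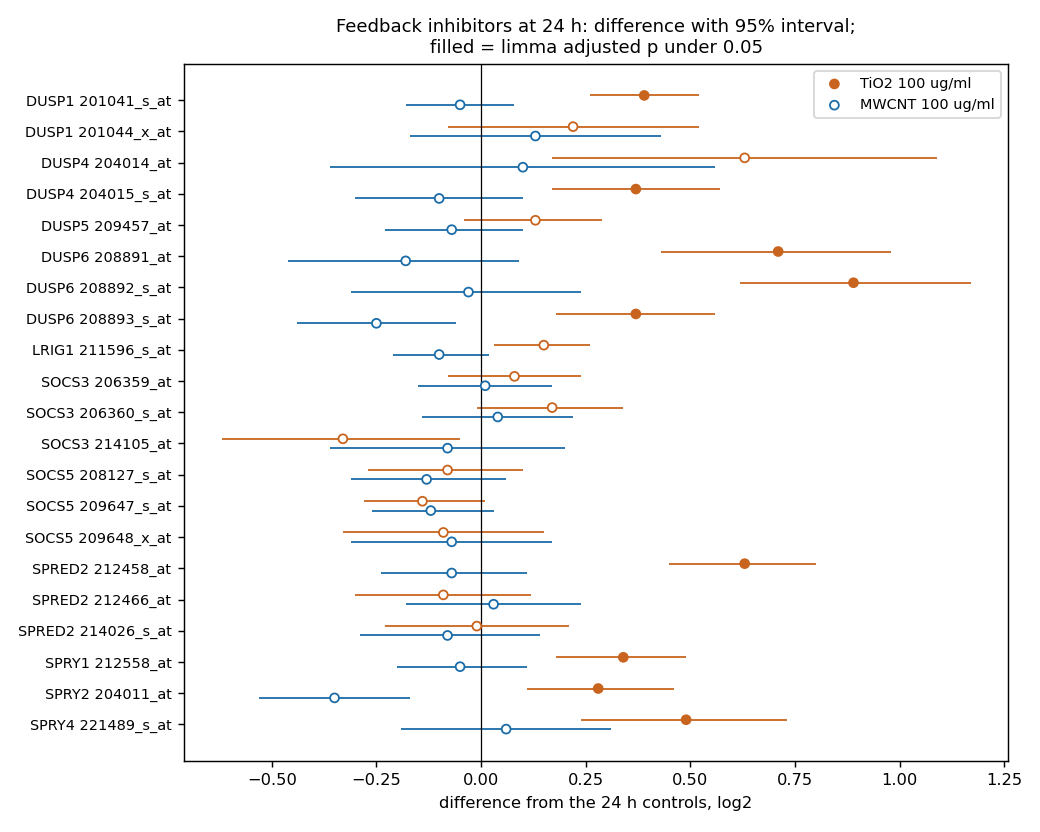
Difference from the 24 h controls (log2) with its 95% interval for the 21 probe sets of the feedback inhibitors with TiO2 (orange) and MWCNT (blue) at 100 ug/ml; filled symbols passed limma's adjusted p of 0.05. TiO2 gives 9 filled symbols in 7 genes, all to the right of 0, and MWCNT gives none.

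Genes with a like pattern were sought among 9930 probe sets with 1 gene symbol and a mean above the table median, members left out. Each member was read by its brightest probe set. The 3 genes with the highest correlation over the 10 group means are given per member. For EREG they were BACH1 (r = 0.999), IER5 (0.999) and ZFP36L1 (0.997), for HBEGF ANGPTL4 (0.996), GRPEL1 (0.996) and IGFBP3 (0.993), and for EGFR 201983_s_at RYBP (0.979), LEPROT (0.972) and AKAP1 (0.956). Over the 30 arrays these 9 values stayed between 0.945 and 0.996. For TGFA they were GCLC (0.842), DOCK4 (0.841) and CSE1L (0.832), and for BTC NKRF (0.781), CELSR2 (0.775) and GSE1 (0.766). Over the 30 arrays these 6 values lay between 0.135 and 0.348. The points share arrays and groups, and for EREG and HBEGF the difference between the times makes up most of the pattern.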

How the data were processed

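The submitters deposited 1 table of log2 expression values for 22277 probe sets in 30 arrays. Per the submitters' processing notes the authors made it with RMA (version not given), which subtracts background, forces the arrays to 1 common distribution and condenses the probes of each set to 1 value. This makes array medians nearly equal, so only differences relative to the bulk of genes are seen. No genome build for the probe sets is given in the sources used here. Groups came from the sample labels.

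The 62 array control probe sets were left out. The other 22215 were fitted with 1 mean per group and moderated variances (limma 3.58.1 in R 4.3.3). In each of 21 comparisons, two-sided p-values were adjusted over all 22215 by Benjamini-Hochberg, with 0.05 as the threshold. Only values past it are said to rise, fall or change. Errors are SE of differences or SD of 3 arrays. An exact permutation test of 3 against 3 cannot go below 0.1, so calls rest on the pooled variance. The number of arrays limits the precision.

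The members and gene lists were chosen with earlier results of these data known. The text names all members, the called genes of each list (with values for at most 6 per list and comparison, and SPRY2 as a seventh with TiO2 100 at 24 h), and per member the 3 genes most alike in group means. Alternatives were a filter on dim probe sets, 1 probe set per gene, cyclic loess, median centring, only the compared groups, array weights, trended robust variances, the replicate number as a block, and leaving out each array. The script was tested on simulated data. Promoters are RefSeq's. Figures used Python 3.11.15 with matplotlib 3.10.9, tables pandas 2.3.3 and numpy 2.4.6, and limma used statmod 1.5.0.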

Additional observations from a re-analysis of the deposited data

Results flagged for a closer look

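In 5 genes around the receptor the effect of a particle differed between 24 h and 1 h by a test of that difference. For TiO2 100 these were 3 of 21 probe sets of the feedback inhibitors and 1 of 19 of receptor turnover, beside 1.44% of all. For MWCNT 100 it was 1 of 21 of the feedback inhibitors, beside 0.446% of all. The other lists had none. No probe set of EGFR, HBEGF, EREG, TGFA or BTC passed that test with all arrays. With TiO2 at 100 ug/ml the effect on SPRED2 was -0.19 ± 0.09 at 1 h and 0.63 ± 0.09 at 24 h, a difference of 0.81 ± 0.12 (adjusted p = 0.000451, limma) that passed in all 20 alternatives. The other 2 SPRED2 probe sets gave -0.13 and 0.05 for the same difference and were not called. For SPRY4 the effects were -0.31 ± 0.12 and 0.49 ± 0.12, a difference of 0.80 ± 0.17 (adjusted p = 0.0146, limma), lost in 2 of 19 alternatives. For SPRY1 they were -0.11 ± 0.08 and 0.34 ± 0.08, a difference of 0.45 ± 0.11 (adjusted p = 0.0321, limma), lost in 7 of 19 alternatives, among them cyclic loess and trended robust variances. CBLB went the other way, from 0.11 ± 0.07 to -0.32 ± 0.07, a difference of -0.43 ± 0.10 (adjusted p = 0.0357, limma), which was lost in 13 of 20 alternatives, with -0.18 in the other CBLB probe set. With MWCNT at 100 ug/ml the effect on DUSP5 was 0.56 ± 0.08 at 1 h and -0.07 ± 0.08 at 24 h, a difference of -0.63 ± 0.11 (adjusted p = 0.00474, limma), lost when only the compared groups were fitted.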

How the results depend on the processing

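Of 330 counts of called members under an alternative, 261 stayed within 1.5 times the reported count and 69 moved, and the causes were not tested. Counts with all arrays are given after "from". Fitting only the compared groups gave 0 members for MWCNT 100 at 1 h (from 1), 1 for TiO2 10 at 1 h (from 0), 0 for TiO2 10 and TiO2 100 at 24 h (from 1 each), 0 between the particles at 10 ug/ml at 24 h (from 2) and 3 for the controls over time (from 5). The filter on dim probe sets gave 1 for TiO2 10 at 1 h, 0 for TiO2 10 at 24 h, 0 for MWCNT 10 against TiO2 10 at 24 h, 3 for the controls over time and 1 for the MWCNT 100 effect between the times (from 0). 1 probe set per gene gave 0, 0, 0, 2 and 1 for TiO2 10, TiO2 100, the particles at 10 ug/ml (all 24 h), the controls over time and the MWCNT 100 effect between the times. Cyclic loess gave 0, 0 and 0 for the first 3 of these, 1 for the particles at 100 ug/ml at 24 h (from 2) and 1 for the MWCNT 100 effect. Median centring gave 2 for TiO2 100 at 24 h and 1 for the particles at 100 ug/ml. Trended robust variances gave 0 for the particles at 10 ug/ml. Array weights gave 1 for TiO2 10 at 1 h, 4 for TiO2 10 and 6 for TiO2 100 at 24 h, 6 between the particles at 100 ug/ml at 24 h, 1 for the MWCNT doses at 1 h, and 1 each for the MWCNT 100, TiO2 10 and TiO2 100 effects between the times. Leaving out 1 array gave 0 to 1 members for MWCNT 10, TiO2 10 and TiO2 100 at 1 h and for the particles at 10 ug/ml at 1 h, and 0 to 2 for MWCNT 100 at 1 h. At 24 h it gave 0 to 4 for TiO2 10, 0 to 3 for TiO2 100, 0 to 3 and 0 to 4 between the particles at 10 and 100 ug/ml, and it gave 4 to 6 for the controls over time and 0 to 1 for the effects of MWCNT 100, TiO2 10 and TiO2 100 between the times. EGFR 201983_s_at changed sign under 2 settings: TiO2 100 at 24 h ranged from -0.12 (without control replicate 1) to 1.02 on leaving out 1 array, and the controls over time from -0.04 (without 24 h control replicate 2) to 1.10. The count over all probe sets for TiO2 10 at 24 h was 1047, against 340 with cyclic loess, 0 with only the compared groups, 3498 with array weights and 74 without 24 h control replicate 1; for TiO2 100 at 24 h it was 2304, against 1260, 12, 5314 and 1200. Over the alternatives, the lowest and highest such counts were 149 and 619 for MWCNT 100 at 1 h (from 323), 46 and 523 for TiO2 10 at 1 h (from 283), 254 and 742 for TiO2 100 at 1 h (from 585), 0 and 1246 for MWCNT 100 at 24 h (from 0), 0 and 1713 between the particles at 10 ug/ml at 24 h (from 833), 690 and 4844 between them at 100 ug/ml at 24 h (from 1979) and 2896 and 8844 for the controls over time (from 6194).

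The replicate numbers did not pair the arrays: of 135 pairs of the same number 20 had deviations correlated over 0.1, with a median of 0.0144 against -0.00352 for other pairs, and 12 of 30 arrays matched their own number best. The replicate block gave 1 member in place of 2 between the particles at 100 ug/ml at 24 h (HBEGF 38037_at, adjusted p = 0.0505, limma) and moved no other count of members by over 1.5 times.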
